A study of Mus musculus with 2 samples.

Results

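Interleukins, chemokines, colony stimulating factors, related growth factors and hormones, and their receptors were examined in mouse morulae that had received LIF-siRNA. The genes were chosen by name alone, as the gene spots whose name on the array starts with 1 of 21 words or phrases such as interleukin, small inducible cytokine, chemokine, colony stimulating, kit, macrophage or prolactin. There were 76 such genes, each on 1 spot, among 8735 gene spots of the array. A current symbol was found for 69 of them through RefSeq, and the others are called by their name on the array. By name, 38 were ligands, 24 receptors, 4 accessory, antagonist or binding proteins, 4 hormones and 6 other genes of macrophages or monocytes.

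Each of 2 arrays compared both groups directly. Whole B6CBF1 embryos at the morula stage, aged 4 d in the labels, had been injected as zygotes with 1 pl of 1.0 fmol siRNA. LIF-siRNA, a small interfering RNA made to lower the transcript of leukemia inhibitory factor (LIF), was injected in the treated group, whose RNA was labeled with Cy5. Scrambled siRNA was injected at the same dose in the control group, whose RNA was labeled with Cy3. The dye order was the same on both arrays, so dye and treatment cannot be told apart. RNA came from pooled morulae, and no source used here says that the arrays held separate pools, so p-values measure only the spread between the arrays, which may be technical. The study's text gives other doses than the labels, and 1 label field describes embryonic stem cells and more replicates than there are arrays. No spot is named for LIF, so the lowering of its transcript was not checked.

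Interleukins, chemokines and colony stimulating factors are secreted proteins that act through receptors on the cell surface, many of which signal through JAK kinases and STAT transcription factors. LIF is a cytokine of the interleukin 6 family, which also holds oncostatin M, cardiotrophin 1 and interleukin 11. Their receptors share a signaling chain that activates STAT3. The reproductive tract secretes LIF, interleukin 1, granulocyte-macrophage colony stimulating factor and kit ligand around implantation.

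Most of these genes were dim on the arrays. Their median processed signal over both channels and arrays was 84.4, against 494 for all gene spots, and 10 of 76 (13.2%) were above 1000, against 40.4%. The processed signal was above the 95th percentile of 664 blank spots in both channels of both arrays for 36 of the 76 genes (47.4%) and for 80.2% of all gene spots, and below it in all 4 for 10 of the 76 genes (13.2%) and for 4.19% of all gene spots. A gene was tested when on each array at least 1 channel, not always the same one, was well above background, which held for 62 of the 76 genes (81.6%) and for 92.5% of all gene spots. The 14 genes not tested included Il2 and Il16, the chemokines Ccl4, Ccl5, Ccl8, Ccl12, Xcl1 and small inducible cytokine A21b, the receptors Ccr2, Ccr7 and Epor, the prolactin-like proteins F and G, and macrophage expressed gene 1. Brightness here describes the spot and not the amount of transcript, since probes differ in it. Pou5f1, Zfp42 and cadherin 1, which mark embryonic cells, were bright, and the 5 spots named for embryo markers had a median signal of 6798. Their summed signal was 49244 and 48594 after LIF-siRNA and 46799 and 55969 in the controls on array 1 and array 2, and 2 of the 5, SRY-box containing gene 2 and keratin complex 2 gene 8, were below 0.5-fold on both arrays. The 13 spots of blood cell markers had a median signal of 116, and 12 of them were dimmer than the median gene spot. The summed signal of these blood cell markers was 3341 and 3576 after LIF-siRNA and 5486 and 4902 in the controls, and embryonic hemoglobin X gave 1610 and 1421 of the first pair and 3979 and 3439 of the second. Among them integrin beta 2 and the Ia-associated invariant chain were above 2-fold on both arrays, and hemoglobin X below 0.5-fold. The 2 cumulus cell spots summed to 471 and 664 after LIF-siRNA and to 375 and 269 in the controls. The part of blood or cumulus cells in the results was not tested, and in whole embryos fewer cells of a type and less RNA per cell cannot be told apart.

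The ratio of LIF-siRNA over scrambled siRNA was above 2 on both arrays for 3 of the 62 tested genes (4.84%), with 2.78% among all 8079 probes tested. They were the receptors Il1r1 and Il17ra and kit ligand (Kitl). The ratio was below 0.5 on both arrays for 1 gene (1.61%), with 3.03% among all probes, the gamma chain of the interleukin 2 receptor (Il2rg). A second rule asked for a ratio past 2 or 0.5 and a signal above 1000, limits taken from the study's methods, and applied them to the geometric mean ratio and to the mean signal of either channel over both arrays, which was a choice made here. By this rule 2 of 76 genes (2.63%) were higher after LIF-siRNA, Il17ra and macrophage galactose N-acetyl-galactosamine specific lectin, with 2.16% among all 8712 gene spots without outlier marks. None was lower by this rule, with 2.19% among all gene spots. All these shares were close to those of the whole array. With limma and Benjamini-Hochberg adjustment over all 8079 probes, 0 of 62 genes and 0% of all probes passed at 0.05, and the smallest adjusted p was 0.058. An unadjusted limma p under 0.05 was found for 18 genes that were higher (29% of 62, with 15.9% among all probes) and for 9 that were lower (14.5%, with 14.8%). Among the higher ones Il1rap, Il1f5, Il15, Il4, Ccl3 and Lepr were well above background on both arrays only in Cy5. Among the lower ones Il2rb was so only in Cy3. The filter thus favored these genes on the side where they were counted. The methods' t-test gave 4 genes (6.45%, with 10.7% among all probes) under 0.05 before adjustment and 0 after it.

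The direction of the ratio leaned one way. The signal was higher after LIF-siRNA on both arrays for 33 of 62 genes (53.2%), with 36.7% among all probes, and lower on both for 11 (17.7%), with 36.8%. Both Cy5 signals were above both Cy3 signals for 28 genes (45.2%, with 31.4% among all probes) and below both for 10 (16.1%, with 31.2%). The median log2 ratio of the 62 genes was 0.22, with 0.17 on array 1 and 0.38 on array 2, and that of all probes was 0.00. On array 2 the control signal of 13 of the 76 genes was a surrogate put in for a low value, against 0 in Cy5. On array 1 these counts were 4 and 2. Signals well above background numbered 49 in the controls and 62 in Cy5 on array 2, and 62 and 58 on array 1. The part of these low control signals in the larger shift on array 2 was not tested. By role the median was 0.33 for 30 tested ligands, 0.11 for 21 receptors and 0.33 for 4 accessory, antagonist or binding proteins, and it was 0.94 for 5 other genes and -0.01 for 2 hormones. By brightness, the median of the 37 genes among the 2020 dimmest probes (mean signals of 18.8 to 144) was 0.32, against 0.02 for all these probes. It was 0.19 against -0.04 for 14 genes at signals of 144 to 619, and 0.27 against -0.02 for 4 genes at 620 to 2156. For the 7 genes among the brightest probes, with signals from 2158, it was -0.18 against 0.01. With normexp background correction and loess the median of the 62 genes was 0.11. The filter that 1 channel could pass let in 10 genes through Cy5 alone, 9 of them among the 33 that were higher, 3 through Cy3 alone, none of them among the 33, and 3 through different channels on the arrays, 1 of them among the 33. Over the 46 genes well above background in both channels on both arrays, 23 (50%, with 36.4% among the 7575 such probes) were higher on both arrays and 10 (21.7%, with 37.3%) lower, with a median of 0.18. Without a filter 37 of 76 (48.7%, with 35.7% of all) were higher and 12 (15.8%, with 35.8%) lower, with a median of 0.16. These shares and medians describe the list and are not a test of it.

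**Figure D1:**
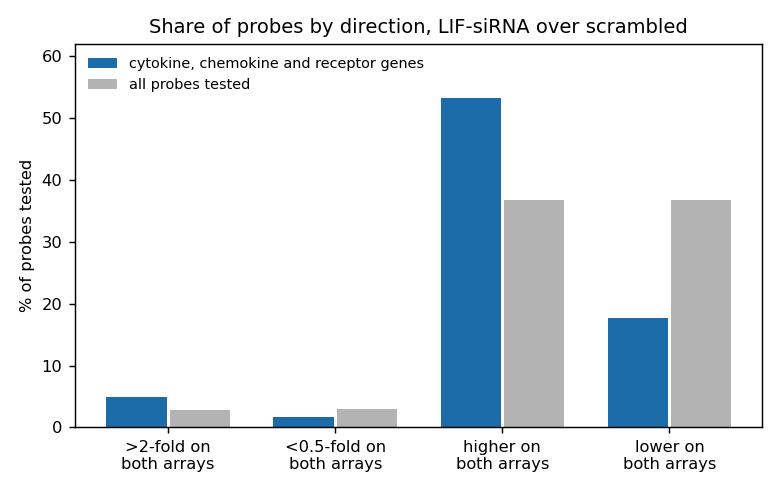
Percent of probes tested whose ratio of LIF-siRNA over scrambled siRNA was past 2-fold or 0.5-fold on both arrays, or on the same side of 1 on both arrays. Blue bars are the 62 cytokine, chemokine and receptor genes and grey bars all 8079 probes; 53.2% of the genes were higher on both arrays, against 36.7% of all probes.

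**Figure D2:**
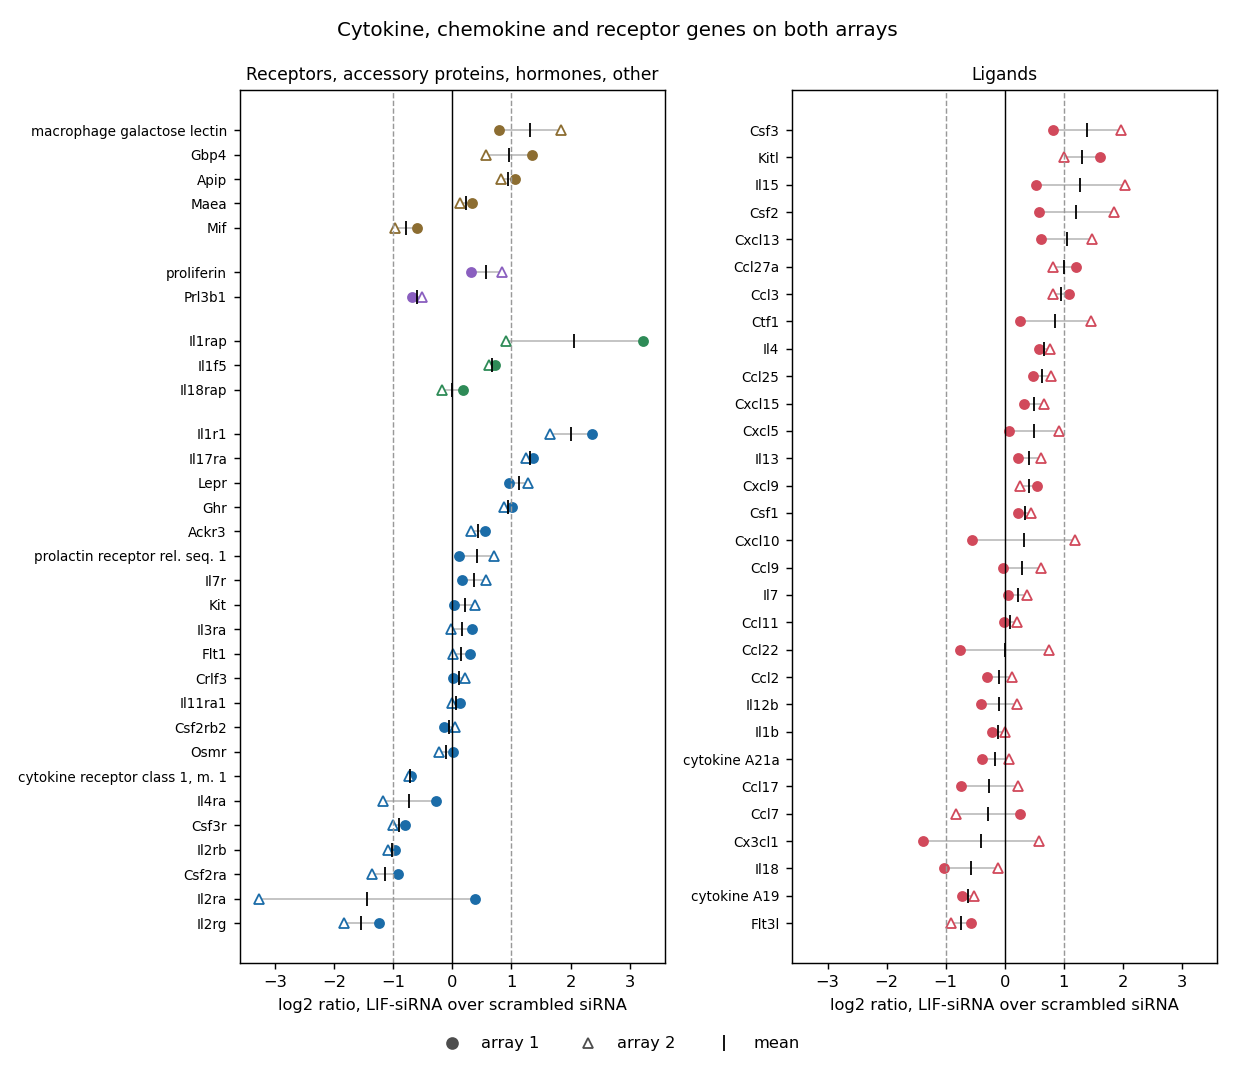
Log2 ratio of LIF-siRNA over scrambled siRNA for 61 of the 62 tested genes, with 1 row a gene, circles for array 1, triangles for array 2 and a tick for their mean. In the left panel the groups from the top are other genes (brown), hormones (purple), accessory, antagonist and binding proteins (green) and receptors (blue), and the right panel holds the ligands (red); dashed lines mark 2-fold and 0.5-fold. Il1r1, Il17ra and Kitl lie past 2-fold on both arrays and Il2rg lies below 0.5-fold on both.

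Promoter sequence is shown for the genes past 2-fold or 0.5-fold on both arrays that have one in the RefSeq table (GRCm38.p6, 250 bases before to 50 after a start), with 2 starts for Il1r1 and none listed for Il17ra, and for Csf2rb2, the colony stimulating factor receptor gene that holds a STAT motif. Capitals mark a TATA box motif (TATAAA, or TTTATA on the other strand) or a STAT motif (TTCNNNGAA, which reads the same on both strands), and the motifs do not overlap in these windows.
Il1r1, chr1:40224830-40225129 (+ strand): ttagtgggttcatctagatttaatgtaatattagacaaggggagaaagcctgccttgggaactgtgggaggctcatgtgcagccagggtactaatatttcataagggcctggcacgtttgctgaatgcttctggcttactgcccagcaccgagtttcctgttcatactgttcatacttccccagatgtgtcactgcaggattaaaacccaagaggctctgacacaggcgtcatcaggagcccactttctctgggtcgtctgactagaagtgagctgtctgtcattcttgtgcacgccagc
Il1r1, chr1:40266336-40266635 (+ strand): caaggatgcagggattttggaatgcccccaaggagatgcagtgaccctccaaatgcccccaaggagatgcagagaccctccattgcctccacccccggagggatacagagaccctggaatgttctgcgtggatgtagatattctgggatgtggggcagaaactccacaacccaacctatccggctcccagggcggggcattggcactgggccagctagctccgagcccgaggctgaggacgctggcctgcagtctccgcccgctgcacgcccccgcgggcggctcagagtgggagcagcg
Il2rg, chrX:101268206-101268505 (- strand): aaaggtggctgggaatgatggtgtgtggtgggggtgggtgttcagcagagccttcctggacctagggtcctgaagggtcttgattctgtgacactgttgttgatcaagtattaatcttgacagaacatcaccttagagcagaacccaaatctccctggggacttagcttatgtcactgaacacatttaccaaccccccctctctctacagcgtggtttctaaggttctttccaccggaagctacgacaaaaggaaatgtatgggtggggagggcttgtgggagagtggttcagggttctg
Kitl, chr10:100015571-100015870 (+ strand): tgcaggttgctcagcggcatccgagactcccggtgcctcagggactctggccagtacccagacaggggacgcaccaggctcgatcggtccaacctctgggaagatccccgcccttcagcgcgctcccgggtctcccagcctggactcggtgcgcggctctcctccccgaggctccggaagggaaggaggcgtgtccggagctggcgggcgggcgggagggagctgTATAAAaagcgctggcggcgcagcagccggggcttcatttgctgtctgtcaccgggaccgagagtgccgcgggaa
Csf2rb2, chr15:78305672-78305971 (- strand): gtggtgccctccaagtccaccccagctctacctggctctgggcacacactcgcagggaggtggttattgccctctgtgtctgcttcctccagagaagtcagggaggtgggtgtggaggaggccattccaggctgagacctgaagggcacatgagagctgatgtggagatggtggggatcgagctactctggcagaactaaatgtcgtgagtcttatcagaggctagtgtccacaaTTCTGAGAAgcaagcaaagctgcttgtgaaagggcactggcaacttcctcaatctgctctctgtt
The 4 windows of Il1r1, Il2rg and Kitl hold no TTCNNNGAA, and Kitl alone among them holds TATAAA. Of 54 genes with a promoter in the table, 5 (9.26%) hold TTCNNNGAA in a window, Ccl17, Csf2rb2, Il1f5, Il4 and Il7r, with 9.55% among all 27025 genes. TATAAA is held by 17 of 54 (31.5%), with 15.7% among all genes. A match describes letters in a window and does not show that a factor binds there.

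Interleukin 1 acts through a receptor made of Il1r1, which binds the ligand, and Il1rap, the accessory chain needed for signaling. For Il1r1 the processed signal after LIF-siRNA was 150 on array 1 and 150 on array 2, and that of the controls was 29 and 47.6. Both LIF-siRNA signals were above both control signals, and the control signals were above those of 87.8% and 92.6% of the blank spots. The log2 ratio was 2.37 and 1.66, with a mean of 2.01 ± 0.50 (SD, n = 2 arrays), or 4.04-fold, and an adjusted p of 0.058 in limma. Under normexp and loess the mean was 0.84, under 2-fold. For Il1rap, which was singled out after its values were seen, the signal was 156 and 63.3 after LIF-siRNA and 16.7 and 33.9 in the controls. The log2 ratio was 3.22 and 0.90, with a limma adjusted p of 0.102, but the control signal was not well above background on either array, and under normexp and loess the mean was 0.66. The ligand Il1b stayed near equal, with log2 ratios of -0.22 and 0.00. Il1f5, named interleukin 1 receptor antagonist homolog 1 on the array, had ratios of 0.72 and 0.61 at signals between 27.7 and 47.2.

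The receptors for interleukins 2, 4, 7 and 15 share the gamma chain Il2rg. Its signal was 141 and 111 after LIF-siRNA and 336 and 395 in the controls, with no overlap between the groups. The log2 ratio was -1.25 and -1.84, with a mean of -1.54 ± 0.42 (SD, n = 2 arrays), or 2.91-fold lower, and a limma adjusted p of 0.0607. Under normexp and loess the mean was -1.08 with 1 array short of 0.5-fold. The partner chains and ligands below were not chosen by the rule for named genes. Il2rb, the beta chain shared with the interleukin 15 receptor, had log2 ratios of -0.97 and -1.08 from signals of 24.2 and 29.2 after LIF-siRNA against 47.4 and 61.9. Its 4 signals were above those of 93.7% to 95.9% of the blank spots, and its mean under normexp and loess was -0.18. Il2ra, the alpha chain, had opposite signs on the arrays, 0.39 and -3.27, since 1 control signal was 239 and the other 37.8. Il4ra, which pairs with Il2rg to bind interleukin 4, had ratios of -0.27 and -1.18. In Il7r they were 0.16 and 0.57.

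The ligands Il15, Il7 and Il4 were not lower on either array. Il15, which acts on natural killer and memory T cells, had signals of 110 and 130 after LIF-siRNA and 76.4 and 31.8 in the controls, with log2 ratios of 0.52 and 2.03. Its control signal was well above background on 1 array alone, and under normexp and loess the mean was 0.51, against 1.28. Il7, a growth factor of lymphoid precursors, had ratios of 0.05 and 0.38. For Il4 the control signal was not well above background on either array. Its signals of 39.3 and 34.6 after LIF-siRNA and 26.4 and 20.3 in the controls gave ratios of 0.57 and 0.77, with a mean of 0.15 under normexp and loess. Over the 9 interleukin receptor chains the median log2 ratio was 0.07, with 3 higher (33.3%) and 3 lower (33.3%) on both arrays, close to the 36.7% and 36.8% of all probes. Over the 7 tested interleukin ligands the median was 0.22. On both arrays 4 were higher (57.1%, with 36.7% among all probes) and 1 was lower (14.3%, with 36.8%). Of the 4, Il15 and Il4 were well above background on both arrays only in Cy5, so the filter favored them as higher. Il18, a ligand that induces interferon gamma, was the interleukin ligand lower on both arrays, with ratios of -1.03 and -0.11. Under normexp and loess its ratios were -0.49 and 0.05, so it was not lower on both.

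Il17ra, named interleukin 17 receptor on the array, binds interleukin 17 and is among the brightest genes of the set. Its signal was 4774 and 4224 after LIF-siRNA and 1846 and 1788 in the controls. Both arrays gave nearly the same ratio, 1.37 and 1.24 on the log2 scale, with a mean of 1.31 ± 0.09 (SD, n = 2 arrays), or 2.47-fold, and a limma adjusted p of 0.0607. Under normexp and loess the mean was 1.26, with ratios past 2-fold on both arrays. Il1r1 and Il17ra stand in the study's own list of up-expression genes from these arrays, although Il1r1 was dimmer than the signal limit here, so that list is not independent evidence of their direction.

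**Figure D3:**
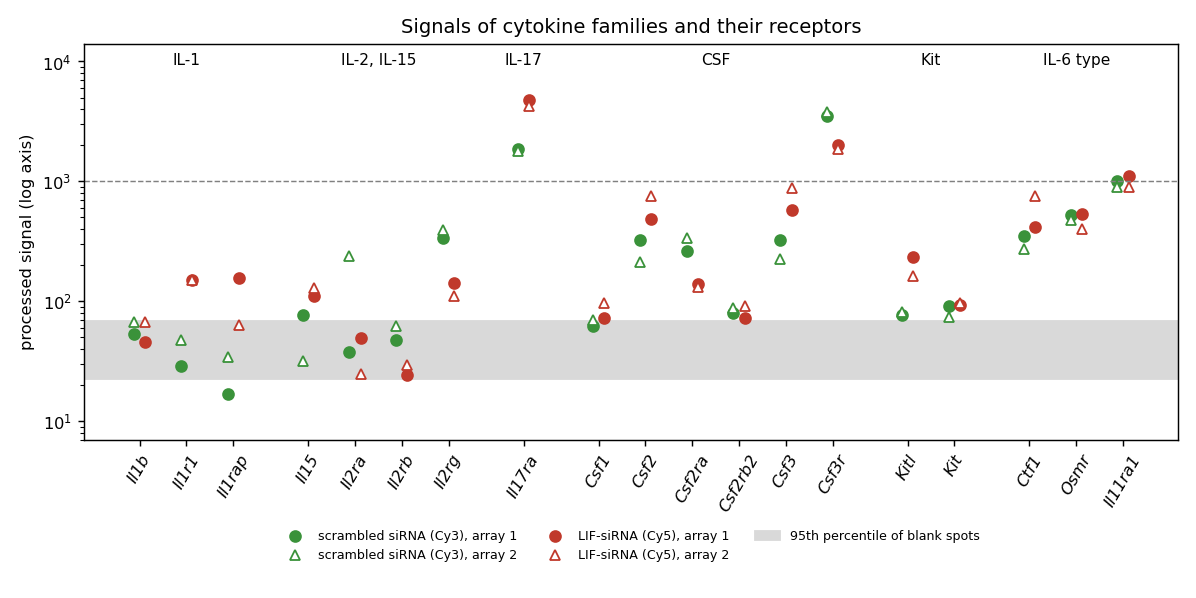
Processed signal on a log axis for cytokine families and their receptors, green for scrambled siRNA (Cy3) and red for LIF-siRNA (Cy5), circles for array 1 and triangles for array 2. The grey band spans the 95th percentiles of the blank spots over the 4 channels, 22.5 to 67.9, and the dashed line marks 1000. Il17ra and Csf3r lie above 1000 with the groups apart, while the control signals of Il1r1 and Il1rap lie in the band or below it.

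In the colony stimulating factor family the ligands Csf2 and Csf3 were higher after LIF-siRNA and the receptor genes Csf2ra and Csf3r lower. Csf3, the growth factor of granulocytes, had signals of 576 and 879 after LIF-siRNA and 326 and 225 in the controls. Its log2 ratio was 0.82 and 1.96, with a mean of 1.39 ± 0.81 (SD, n = 2 arrays), or 2.62-fold, and a limma adjusted p of 0.0892. Csf2, granulocyte-macrophage colony stimulating factor, had signals of 485 and 757 against 324 and 211, with ratios of 0.58 and 1.84. For both ligands the LIF-siRNA signals were above both control signals, and array 2 gave the higher ratio. Csf1, the growth factor of macrophages, had lower ratios of 0.22 and 0.45.

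The receptor Csf3r, which binds Csf3, had signals of 2024 and 1867 after LIF-siRNA and 3508 and 3755 in the controls. Its log2 ratio was -0.79 and -1.01, with a mean of -0.90 ± 0.15 (SD, n = 2 arrays), or 1.87-fold lower, and a limma adjusted p of 0.0876. Csf2ra, the ligand-binding chain for Csf2, had signals of 138 and 131 against 262 and 335. Its ratio was -0.92 and -1.36, with a mean of -1.14, or 2.20-fold lower, and a limma adjusted p of 0.0734. Neither receptor gene overlapped between the groups. Csf2rb2, the mouse chain of the interleukin 3 receptor related to the common beta chain, had ratios of -0.15 and 0.05, and Il3ra had 0.34 and -0.02. Over all 6 genes of the family the median log2 ratio was 0.14, and no test of ligands against receptors was run.

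Kitl, the ligand of the receptor Kit, which maintains germ cells and blood progenitors, had signals of 235 and 163 after LIF-siRNA and 76.5 and 81.2 in the controls. The log2 ratio was 1.62 and 1.00, with a mean of 1.31 ± 0.44 (SD, n = 2 arrays), or 2.48-fold, and a limma adjusted p of 0.0698. The value on array 2 sat on the 2-fold limit, and under normexp and loess the mean was 0.75. Kit, the receptor, had signals of 93.7 and 96.5 against 92 and 73.8, which lie close together without overlap, and ratios of 0.03 and 0.39. Flt3l, the ligand of the related FLT3 receptor, had the opposite direction to Kitl, with ratios of -0.57 and -0.91 and a limma adjusted p of 0.11. Flt1, a receptor of vascular endothelial growth factor, had ratios of 0.30 and 0.01.

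Of the family of LIF itself, 3 genes were on the array under these names. Il11ra1, the alpha chain that binds interleukin 11, had signals of 1103 and 903 after LIF-siRNA and 1005 and 903 in the controls, with log2 ratios of 0.14 and 0.00. Osmr, the chain that pairs with the shared subunit to bind oncostatin M, had signals of 531 and 404 against 526 and 472, with ratios of 0.01 and -0.22. Neither receptor was apart between the groups. Cardiotrophin 1 (Ctf1), a ligand of the LIF receptor, had signals of 413 and 751 against 347 and 274, with ratios of 0.25 and 1.45. Its mean was 0.85 ± 0.85 (SD, n = 2 arrays), so the SD was as large as the mean, with a limma adjusted p of 0.177.

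**Figure D4:**
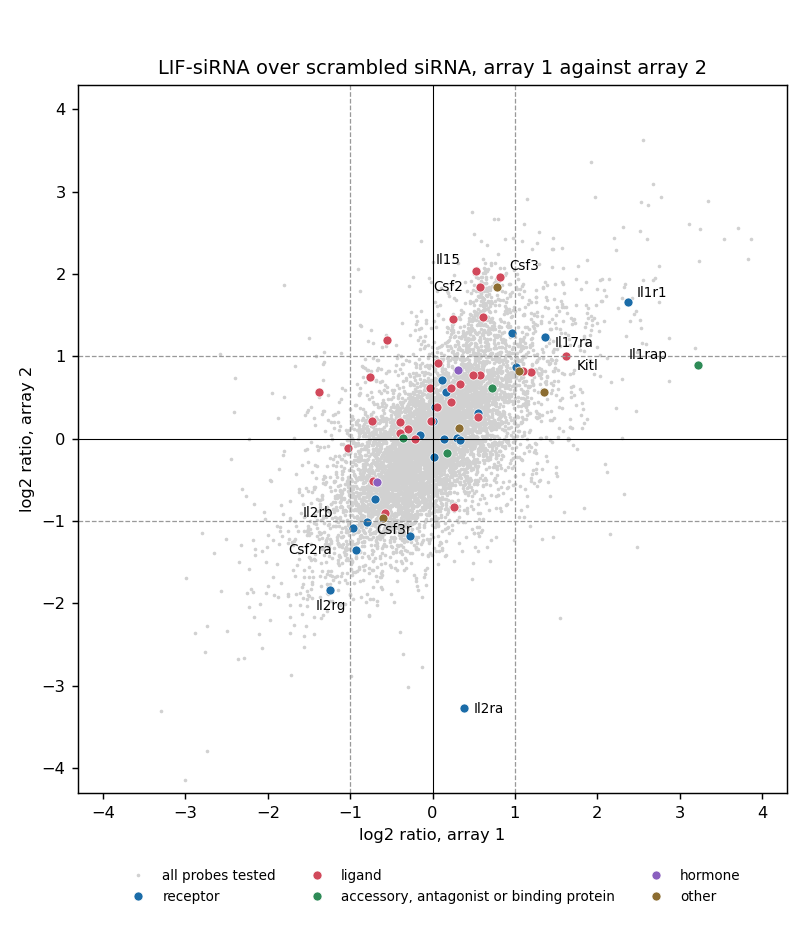
Log2 ratio of LIF-siRNA over scrambled siRNA on array 1 (horizontal) against array 2 (vertical). Grey dots are all 8079 probes tested and coloured circles the 62 cytokine, chemokine and receptor genes by role, with dashed lines at 2-fold and 0.5-fold; Il1r1, Il17ra and Kitl are past 2-fold on both arrays, Il2rg is below 0.5-fold on both, and Il1rap and Il2ra lie far from the diagonal.

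The arrays were about as similar over these genes as over the whole array. Across the 62 genes Pearson's r between the log2 ratios of array 1 and array 2 was 0.53 and Spearman's rho 0.67, and across all probes they were 0.64 and 0.63. This is a correlation across genes of the same arrays, which are not independent. The sign was the same on both arrays for 44 genes (71%) and for 73.5% of all probes. Over the 46 genes well above background in both channels on both arrays, r was 0.73 and rho 0.77.

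Chemokines, which guide the migration of leukocytes and of some embryonic cells, were dim on the arrays. The 23 named small inducible cytokine had a median signal of 40, and 17 of them were tested. Over these 17 the median log2 ratio was 0.29, with -0.02 on array 1 and 0.61 on array 2, so the arrays did not give the same shift. The ratio was above 1 on both arrays for 7 of 17 (41.2%, with 36.7% among all probes) and below 1 on both for 1 (5.88%, with 36.8%), and none was past 2-fold or 0.5-fold on both. Of the 7, Ccl3, Cxcl5 and Cxcl15 passed the background filter through Cy5 alone, as their control signals passed it on 1 array. The filter thus favored these genes as higher, and the 7 and the 1 do not settle a direction of the chemokines. The chemokines with the highest mean ratios were Cxcl13, which attracts B cells, at 0.61 and 1.48, Ccl27a, a skin chemokine, at 1.20 and 0.82, and Ccl3, which attracts macrophages, at 1.10 and 0.82. They were chosen for their values. The control signal of Ccl3 passed the background filter on 1 array, and under normexp and loess the order was not kept, with means of 0.62 for Cxcl13, 0.42 for Ccl3 and 0.33 for Ccl27a, and of 0.56 for Ccl25. Ackr3, a scavenging receptor named chemokine orphan receptor 1 on the array, was the chemokine receptor tested, with signals of 877 and 588 against 599 and 474 and ratios of 0.55 and 0.31. The brightest chemokine was small inducible cytokine A19, a ligand of Ccr7, with signals of 4857 and 4373 after LIF-siRNA and 8024 and 6255 in the controls. It was the chemokine lower on both arrays, with ratios of -0.72 and -0.52, a mean of -0.62 ± 0.15 (SD, n = 2 arrays), or 1.54-fold lower, and a limma adjusted p of 0.134.

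Hormones and their receptors were few. Placental lactogen 2 (Prl3b1), a placental hormone of the prolactin family, had signals of 444 and 420 after LIF-siRNA and 709 and 603 in the controls, with log2 ratios of -0.68 and -0.52. Proliferin, of the same family, was dim and had ratios of 0.31 and 0.83. The receptors for leptin (Lepr) and growth hormone (Ghr) were higher after LIF-siRNA on both arrays, Lepr at 0.96 and 1.29 and Ghr at 1.01 and 0.87. The control signal of Lepr passed the background filter on 1 array, and under normexp and loess the means were 0.36 for Lepr and 0.45 for Ghr. Both were singled out after their values were seen.

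The brightest genes of the set were mostly not cytokines in the strict sense. Macrophage galactose N-acetyl-galactosamine specific lectin, a carbohydrate-binding receptor of macrophages, had signals of 4361 and 5520 after LIF-siRNA and 2523 and 1545 in the controls. Its log2 ratio was 0.79 and 1.84, with a mean of 1.31 ± 0.74 (SD, n = 2 arrays), or 2.49-fold, and a limma adjusted p of 0.0895. On array 1 alone it fell short of 2-fold. Monocyte macrophage 19, now Apip, an enzyme of methionine salvage, had signals of 2811 and 2712 against 1352 and 1530, with ratios of 1.06 and 0.83.

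Mif, a cytokine that holds macrophages in place and is made by many cell types, had signals of 2456 and 1876 after LIF-siRNA and 3715 and 3657 in the controls. Its log2 ratio was -0.60 and -0.96, with a mean of -0.78 ± 0.26 (SD, n = 2 arrays), or 1.72-fold lower, and a limma adjusted p of 0.104. The ratios of 2 other bright genes were nearer 0. Maea, which joins erythroblasts to macrophages, had 0.33 and 0.13. Crlf3, named cytokine receptor-like molecule 9 on the array, had 0.01 and 0.22.

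Downstream of these receptors, 31 spots of JAK, STAT, SOCS, NF-kappaB and related signaling genes were read, of which 29 were tested. Their median signal was 842 and their median log2 ratio 0.03. None was above 2-fold on both arrays, with 2.78% among all probes. Below 0.5-fold on both was 1 of 29 (3.45%), with 3.03% among all probes, cytokine inducible SH2-containing protein 1 (Socs1), an inhibitor of JAK kinases that cytokines induce. Its signal was 343 and 236 after LIF-siRNA and 955 and 838 in the controls. The log2 ratio was -1.48 and -1.83, with a mean of -1.65 ± 0.25 (SD, n = 2 arrays), or 3.14-fold lower, and a limma adjusted p of 0.058. Under normexp and loess it was -1.33, still below 0.5-fold on both arrays.

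The other inhibitors of its family gave other values. Cytokine inducible SH2-containing protein 2 (Socs2) had log2 ratios of -0.27 and -0.23. Protein 3 (Socs3), a target of STAT3, had 0.03 and 1.65, since the control signal was 1514 on array 1 and 338 on array 2. The spot named Socs-5 had opposite signs on the arrays, 0.93 and -0.51. By the ratio and signal criteria 1 of 31 spots (3.23%, with 2.16% among all gene spots) was higher, Cebpa, a transcription factor of myeloid and fat cells, with ratios of 0.89 and 1.59. By the same criteria 2 spots (6.45%, with 2.19% among all gene spots) were lower. Traf2, an adaptor of tumor necrosis factor receptors, had -0.77 and -1.63. The other was 1 of 2 spots of protein tyrosine phosphatase non-receptor type 11, an effector of cytokine receptors, with -0.43 and -1.73, and the second spot of that gene had -0.52 and 0.35. The kinase Tyk2 had 1.14 and 0.46, Stat5a had -0.28 and 0.17 and the adaptor Myd88 of the interleukin 1 receptor had 1.01 and 0.75.

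Normexp and loess, which change background correction and normalization together, gave mean ratios closer to 0 for dim genes such as Il1r1, Il1rap and Il2rb. Under normexp and loess, 1 of 62 genes (1.61%, with 1.3% among all probes) was above 2-fold on both arrays, Il17ra, and none was below 0.5-fold, with 1.65% among all probes, and r between the arrays over the 62 genes was 0.71. With the test limited to probes well above background in both channels on both arrays, Il1r1 (limma adjusted p = 0.0437), Il17ra (0.0484) and Il2rg (0.0484) passed, 3 of 46 genes (6.52%), with 3.09% among the 7575 probes tested in this way. Their ratios are the same as in the test of all 8079 probes, where their adjusted p was 0.058, 0.0607 and 0.0607.

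**Figure D5:**
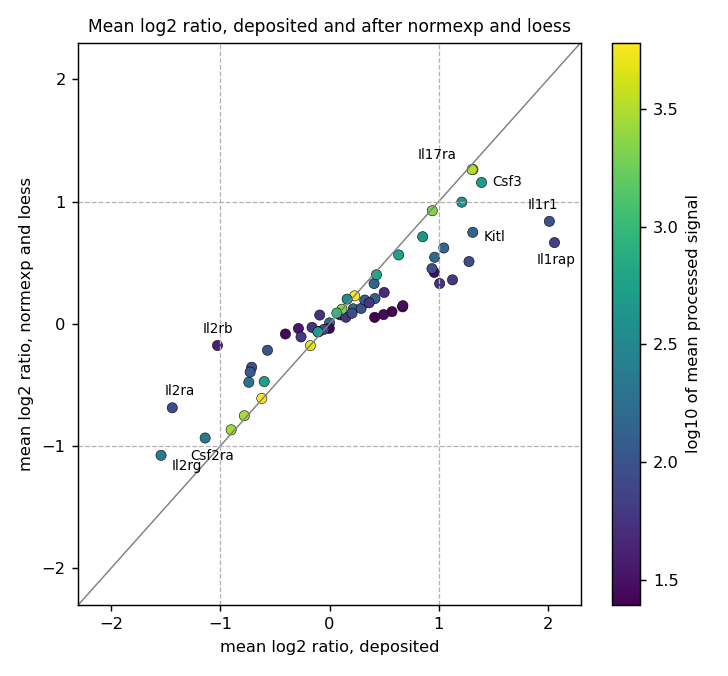
Mean log2 ratio of the 62 tested genes with the deposited log ratios (horizontal) and after normexp background correction and loess (vertical), coloured by the log10 of the mean processed signal. The grey line marks equal values and dashed lines 2-fold and 0.5-fold; bright genes such as Il17ra lie on the line, and dim ones such as Il1r1, Il1rap and Il2rb lie closer to 0 on the vertical axis.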

How the data were processed

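RNA of LIF-siRNA-treated (Cy5) and scrambled-siRNA-treated (Cy3) morulae was measured on 2 two-colour Agilent cDNA arrays. The authors deposited Agilent Feature Extraction output without depth or counts, so the number of arrays limits the precision. The deposited log10 ratio of Cy5 over Cy3 holds the dye normalization of that software (rank-consistent lowess) and was turned to log2. The deposited intensity columns hold mean and background brightness and the processed signal, in which low values are replaced by surrogates. Other deposited columns hold flags for outliers and for signals well above background. The deposited log2 table of the series follows the brightness of both channels (r = 0.9978 on array 1), not the ratio (r = 0.0121), and gave no alternative.

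Control spots and 23 outlier spots (0 among the 76 genes) were dropped. The ratio was fitted in limma 3.58.1 (R 4.3.3, lmFit and eBayes, intercept only, two-sided) over 8079 probes, with Benjamini-Hochberg adjustment over all of them and a threshold of 0.05. Python 3.11.15, pandas 2.3.3, numpy 2.4.6 and matplotlib 3.10.9 were used for the rest. On simulated data with 200 of 8079 probes changed, the fit recovered 0 at 2-fold, 172 at 4-fold and 196 at 8-fold, with 0, 11 and 21 false calls.

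The genes named by rule are those past either set of limits, the LIF and interleukin 6 family, the colony stimulating factors and receptors, the 10 brightest, and signaling genes past the limits. The genes and lists were chosen with earlier results of these data known. Alternatives were normexp (offset 50) with loess, median centring, other filters, signal and outlier rules, an intensity trend, a one-sample t-test and each replicate left out. No accession of a clone was found in the reference, so symbols were matched by name. Proteins, probe and siRNA sequences were not used here, and 1 gene among the brightest is not reported here on its own.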

Additional observations from a re-analysis of the deposited data

How the results depend on the processing

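The count of cytokine, chemokine and receptor genes higher by the ratio and signal criteria was 2, with 11 (14.5%, with 6.55% of all gene spots) without the signal criterion and 1 (1.32%, with 0.941%) with the criteria met on each array, and the count lower was 0, with 4 (5.26%, with 5.13%) without the signal criterion. Above 2-fold on both arrays there were 3, with 1 under normexp and loess, and below 0.5-fold 1, with 0. With 1 replicate left out, when only 1 array had to pass, the counts were 2 in both cases for the criteria (higher, 2.63%, with 2.02% and 2.98% of all), 0 to 1 (lower, 1.32%, with 3.05%), 9 (14.5%, with 6.33% of all probes) to 11 (17.7%, with 9.49%) above 2-fold and 3 (4.84%, with 6.04%) to 6 (9.68%, with 7.97%) below 0.5-fold. For the signaling genes 2 of 29 were above 2-fold in both cases, with the same 6.33% and 9.49% among all probes, and 0 with both arrays. Below 0.5-fold were 1 to 3 of 29, with 6.04% to 7.97% among all probes, and 1 with both arrays. The median log2 ratio of the genes was 0.17 to 0.38 with 1 replicate left out. For the signaling genes it was 0.020 to 0.028, with 0.027 on both arrays, 0.045 under normexp and loess, 0.033 with both channels well above background and -0.009 without a filter on dim probes, so its sign is not settled. The correlation of the arrays over the genes was 0.53, with 0.71 under normexp and loess, 0.50 without a filter and 0.73 with both channels well above background. Limma called 0 of the genes, and 1 under normexp and loess (Il17ra), 3 with median centring, 3 with both channels well above background (Il1r1, Il17ra and Il2rg in both), 5 of the 10 tested past the signal criterion and 12 with an intensity trend. Among the tested signaling genes it called 0 of 29, 1 of 29, 1 of 29, 1 of 28, 3 of 14 and 4 of 29 in the same order. It called 0 with no filter or outliers kept, and the one-sample t-test also called 0. Among all probes tested in each setting it called 0 of 8079, 158 of 8079 (1.96%, with 1.61% of the genes), 345 of 8079 (4.27%, with 4.84%), 234 of 7575 (3.09%, with 6.52%), 660 of 3527 (18.7%, with 50%) and 1133 of 8079 (14%, with 19.4%), so calls appeared across the whole array, and the cause was not tested. Of 24 named genes none changed sign under normexp and loess, median centring, both-channel filtering, no filter or outliers kept. No paired analysis was possible because each log ratio already pairs both groups within 1 array, and for the same reason no slide block could be fitted. Each gene is 1 spot, so rules for several spots gave no other value. Median signal over background was 1.67 to 2.18 for these genes and 4.83 to 6.60 for all gene spots, which limits the ratios of dim genes.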
